A study of Triticum aestivum with 18 samples.

Results

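Of the 61179 wheat probe sets on the array, 26 differed from the control in the same direction in roots given no magnesium, no phosphate and no sulfate fertiliser. The same 26 lay near the control in roots given no potassium or low nitrogen fertiliser. A probe set, the group of short probes that reports 1 transcript or a few related ones, was taken when 3 conditions held. Its mean log2 intensity differed from the control mean by 0.7 or more (1.62-fold) in the same direction in each of no magnesium, no phosphate and no sulfate roots. It stayed within 0.3 (1.23-fold) of the control mean in both no potassium and low nitrogen roots, and its mean log2 intensity over the 18 arrays was 7 or more, which 24204 probe sets reached. Of these, 24 were higher (0.0992%), called risers below, and 2 were lower (0.00826%), called fallers. The members were thus chosen by their differences from control, so those differences are described here without a test.

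The roots came from winter wheat, Triticum aestivum cultivar Hereward, dug up at booting in May 2011 from the continuous wheat plots of Broadbalk, a long-term fertiliser experiment at Rothamsted. There were 6 groups of 3 root samples, each on its own array: no magnesium, no phosphate, no sulfate, no potassium, low nitrogen, and a control plot with full nutrient supply. All groups share the cultivar, the season and ordinary field practice. The words deficient, lacking and without refer below to the fertiliser withheld, since no nutrient content of roots or soil was read here. Per the labels' protocols, magnesium, phosphate, potassium and nitrogen fertiliser were withheld since 1843 and sulfur since 2000, so the sulfate group has the shorter history. The series text counts 12 samples, while 18 were used here. Nothing in the labels says whether the 3 samples of a group came from separate plots. If they did not, plot and nutrient cannot be told apart, and the p-values below measure only the spread between these samples.

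As background, magnesium is the partner ion of ATP in most phosphate-transferring enzymes and the central ion of chlorophyll. Phosphate is built into nucleic acids, membrane lipids and ATP itself, and roots short of it remodel membrane lipids and release phosphatases. Sulfate is reduced to cysteine, from which methionine and glutathione, a thiol that buffers redox state and binds metals, are made. Potassium is the main osmotic ion of plant cells, and nitrogen enters amino acids, nucleic acids and chlorophyll. A field root sample is a mixture of cell types and root ages, so a lower signal can mean fewer cells of a type or less RNA per cell, and these cannot be told apart here.

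None of the 26 members was paired with a gene by the platform's annotation, which names a gene for 841 of the 24204 probe sets of that brightness (3.47%). Members are therefore given by rank, from the largest to the smallest of the minimum difference among no magnesium, no phosphate and no sulfate. The risers came from 23 sequence clusters of the array design, since risers 5 and 7 belong to the same cluster. By the ending of their names, 17 risers were single-target (_at) probe sets, 2 were shared by several transcripts (_s_at) and 5 could cross-hybridise (_x_at). In hexaploid wheat such probe sets may read copies of a gene on the other genomes. Probe sets of the TaAffx name class made up 11 of the 24 risers (45.8%) and 23.7% of all probe sets of that brightness. The risers were rather dim, with a median mean log2 intensity of 8.37 against 9.37 for all probe sets past the brightness step.

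Most probe sets that were higher in all of no magnesium, no phosphate and no sulfate roots also moved away from the control in the other plots. Of 166 that were 0.7 or more higher in all of them, 63 stayed within 0.3 of control in no potassium, 45 did so in low nitrogen, and 24 in both. In the lower direction 6 probe sets passed in all of them, 5 of which stayed near control in no potassium, 3 in low nitrogen and 2 in both. No phosphate had the most probe sets past 0.7 on its own, 949 higher and 819 lower. No sulfate had 583 higher and 73 lower, and no magnesium 328 higher and 66 lower.

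Among the 24 risers, the difference from control was usually largest without phosphate and smallest without magnesium. The median log2 difference was 0.85 in no magnesium (0.70 to 1.35), 1.06 in no phosphate (0.71 to 2.33) and 0.94 in no sulfate (0.71 to 1.41). No phosphate gave the largest of these differences in 19 of 24 risers, and no magnesium the smallest in 17. Inside the 0.3 band, 21 of the 24 stood above control in no potassium, with a median of 0.11, and 12 did so in low nitrogen, with a median of 0.01. Over all 24204 probe sets of that brightness the medians lay between -0.02 and 0.03 in every group. The fallers averaged -0.75 in no magnesium, -1.19 in no phosphate and -0.75 in no sulfate.

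**Figure D1:**
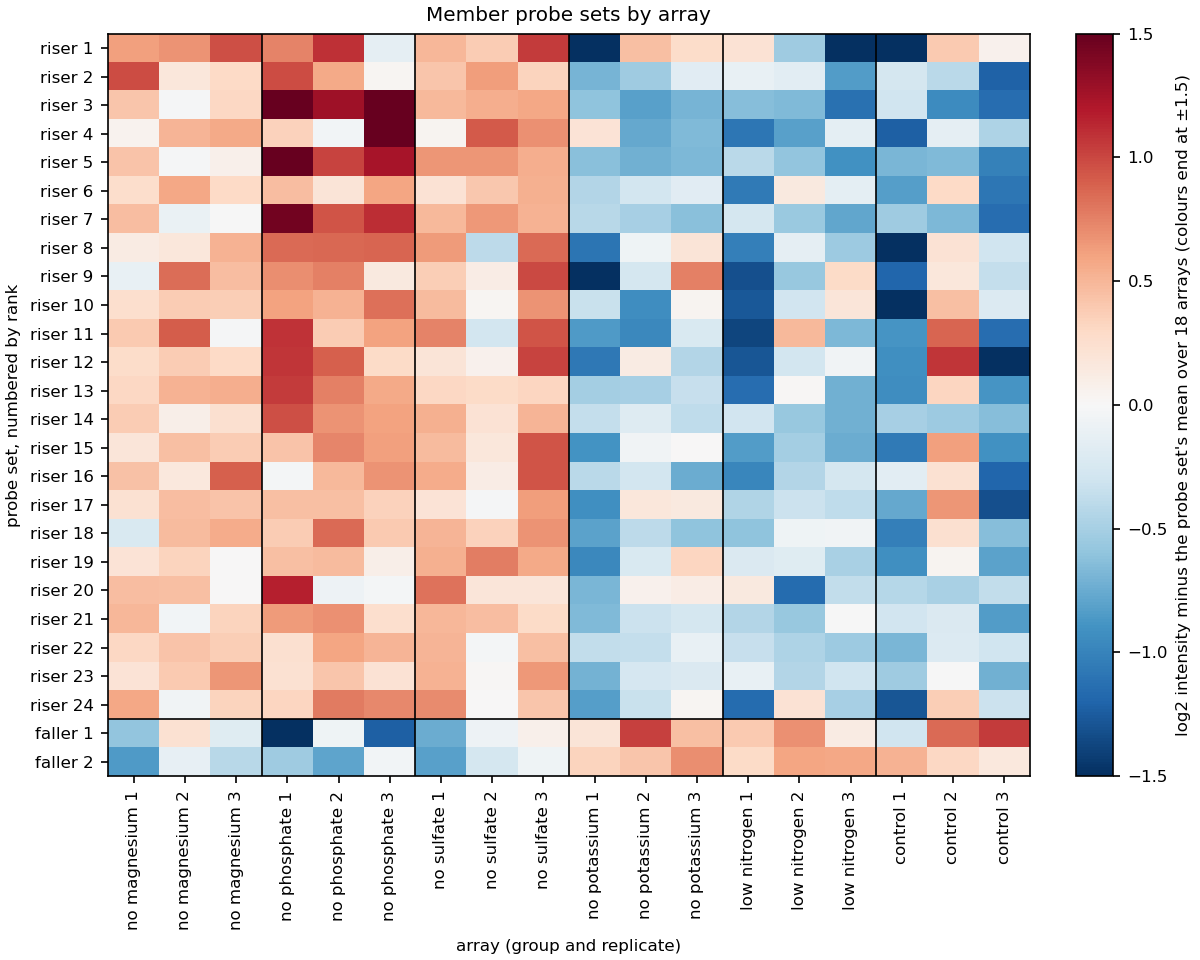
Log2 intensity of the 26 member probe sets (rows, by rank) on the 18 arrays (columns, by group and replicate), as the deviation from each probe set's own mean, with colours ending at 1.5 either way. The no magnesium, no phosphate and no sulfate columns are mostly above the mean for the 24 risers, controls 1 and 3 are mostly below it, and control 2 is above it for 14 of the 24.

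The choice of members depends on each control array, and control array 2 stood apart from the other control arrays. Across the risers the median deviation from their own means was -0.85 on control 1, 0.19 on control 2 and -0.82 on control 3. On the no magnesium, no phosphate and no sulfate arrays it ran from 0.20 to 0.68, and on the no potassium and low nitrogen arrays from -0.69 to -0.19. Control 2 was thus nearer to the first set of arrays than to the controls beside it. It exceeded both other controls in 19 of 24 risers, by a median of 0.92 over their mean (-0.22 to 2.34), while the no magnesium, no phosphate and no sulfate arrays exceeded that mean by a median of 1.37. In 14 risers control 2 was at or above the lowest of those 9 arrays. Among these, it exceeded all 9 in riser 17, at 1163 against 1133 at most, and lay inside their range in the others.

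The same split was visible in the intensity distribution of whole arrays. The median intensity of all wheat probe sets was 68.5 to 72.0 on the no magnesium arrays, 69.0 to 69.8 on the no phosphate arrays and 65.2 to 72.4 on the no sulfate arrays. It was 53.3 to 62.0 on the no potassium arrays, 60.1 to 61.1 on the low nitrogen arrays, and 53.6, 68.6 and 54.4 on controls 1, 2 and 3. On every array with a median of 65.2 or more the risers' median deviation from their own means was above 0, and on every array with 62.0 or less it was below 0. Dim probe sets shared a small part of this shift. Those of mean log2 7 to 8, which include 10 of the 24 risers, had a median difference from control of 0.10 in no magnesium, 0.09 in no phosphate and 0.09 in no sulfate, whereas those at 10 or more had -0.03, -0.04 and -0.04. RNA integrity was read as the ratio of 5' to 3' signal of 6 control genes, of which sucrose synthase was read on its middle part. For ubiquitin it was 1.09 to 1.25 on the no magnesium, no phosphate and no sulfate arrays and, overlapping that range, 1.201 to 1.32 on the no potassium and low nitrogen arrays, with 1.19 on control 2 and 1.28 on both controls 1 and 3. For EF1a control 2 also lay outside controls 1 and 3, at 1.61 against 4.66 and 34.2. This ratio varied widely, from 0.99 to 10.2 on the no magnesium, no phosphate and no sulfate arrays. On the no potassium and low nitrogen arrays it ran from 0.67 to 8.97, so control 2 lay inside both ranges. For GAPDH, G6PDH, actin and sucrose synthase, control 2 lay between controls 1 and 3, and the ranges of the deficient groups overlapped. The part of array brightness and RNA integrity in the shared response was not tested.

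**Figure D2:**
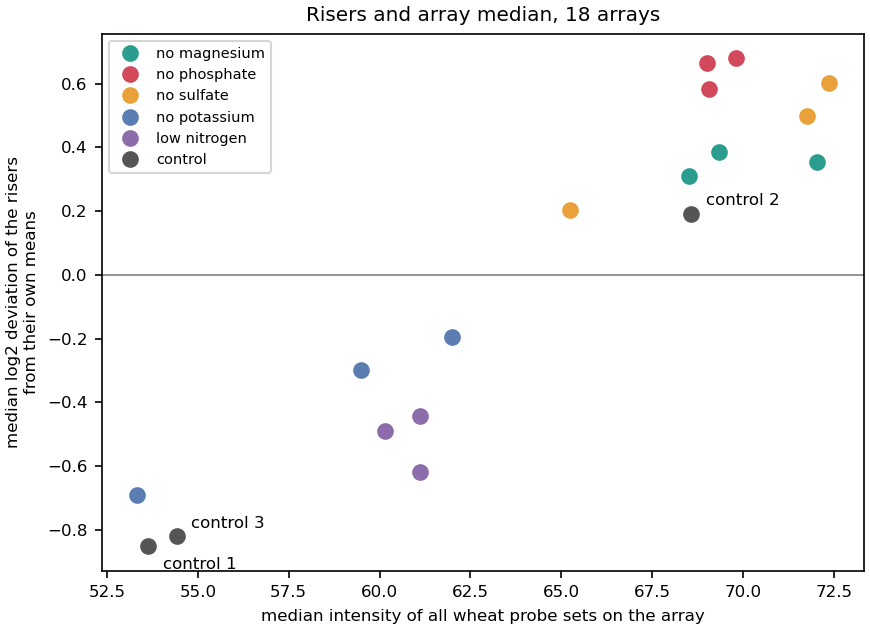
Median log2 deviation of the 24 risers from their own means (vertical axis) against the median intensity of all wheat probe sets on the array (horizontal axis, linear intensity units), 1 point per array, coloured by group. Arrays with medians of 65.2 and above, control 2 among them, lie above 0, and those at 62.0 and below lie under it.

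In 10 of the 24 risers all 9 no magnesium, no phosphate and no sulfate arrays exceeded all 3 controls, which 1.81% of the 24204 probe sets of that brightness did. In 22 they exceeded controls 1 and 3 (9.13% of all). In 7 they exceeded all 9 other arrays (0.306% of all), a number that became 11 when control 2 was ignored (0.913% of all). The rule used these very differences, so the counts describe the members and nothing is read from them. Within groups, the risers moved together from array to array, some of them more than others. The mean pairwise correlation of their deviations from the group means was 0.24 over the 18 arrays and 0.14 without the control arrays, and over all probe sets of that brightness 0.0037 and 0.0035. For the 14 risers not above all controls it was 0.57, and 0.42 without the control arrays. For the 10 above all controls it was 0.17 and 0.14. The division into these 14 and 10 was itself made by their control values. All these correlations share the same arrays and are given as a description.

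**Figure D3:**
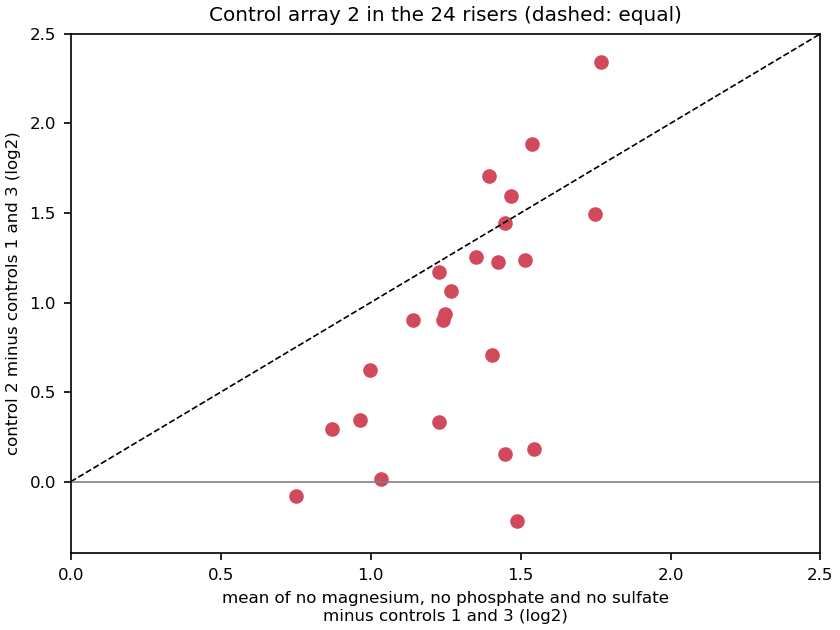
Each of the 24 risers by the mean of its no magnesium, no phosphate and no sulfate arrays (horizontal axis) and by control array 2 (vertical axis), both as log2 differences from the mean of controls 1 and 3, with the dashed line marking equality. Control 2 is above the mean of controls 1 and 3 for most risers, with a median of 0.92 and a range of -0.22 to 2.34.

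Without control 1 the rule gave 8 risers, of which 6 were among the 24, and without control 3 it gave 17, of which 11 were. Without control 2 it gave 39, of which 6 were among the 24, namely risers 3, 5, 14, 20, 21 and 22. Of the 18 that dropped out, 17 did so because no potassium (14) or low nitrogen (12) then lay more than 0.3 from control. Of the 33 that came in, 32 had been short of 0.7 in no magnesium, no phosphate or no sulfate while control 2 was included. For the original 24 the median differences without control 2 were 1.17 in no magnesium, 1.43 in no phosphate, 1.33 in no sulfate, 0.34 in no potassium and 0.30 in low nitrogen. In low nitrogen these 24 then ran from -0.08 to 0.73, and in no potassium from 0.02 to 0.84. The fallers without control 2 numbered 3, and faller 2 was the only one in both.

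Each array was left out in turn, and risers were chosen on the other 17. The intensity of the left-out array was then unused by the choice, but the control arrays it was set against were used. On left-out arrays of the selecting groups, the median difference from control was 0.72, 0.80 and 0.82 in no magnesium, 1.08, 1.19 and 0.91 in no phosphate, and 0.98, 0.57 and 1.15 in no sulfate. On left-out no potassium arrays it was 0.10, 0.26 and 0.45, and on low nitrogen arrays 0.16, 0.17 and 0.06. All probe sets of that brightness had medians from -0.03 to 0.04 on the same arrays. On left-out arrays of the selecting groups nearly every riser was above control. The exceptions were 1 of 22 on no phosphate array 2 and 1 of 21 on no sulfate array 1. On no sulfate array 2 it was 1 of 30. Of all probe sets of that brightness, 48.8% to 54.0% were above control on the left-out arrays of these groups. Those were not chosen by their control values. The control arrays entered both the choice and the difference, so a difference above 0 can be partly built in, and these values are a description. Left-out control 2 showed a median of 0.66 relative to the remaining controls over the 39 risers chosen without it, with 36 above (53.2% of all probe sets of that brightness) and 18 past 0.7 (4.28% of all). Left-out controls 1 and 3 gave 0.05 over 8 risers and 0.08 over 17. The value of control 2 was thus close to those of left-out no magnesium arrays, over a different set of risers.

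**Figure D4:**
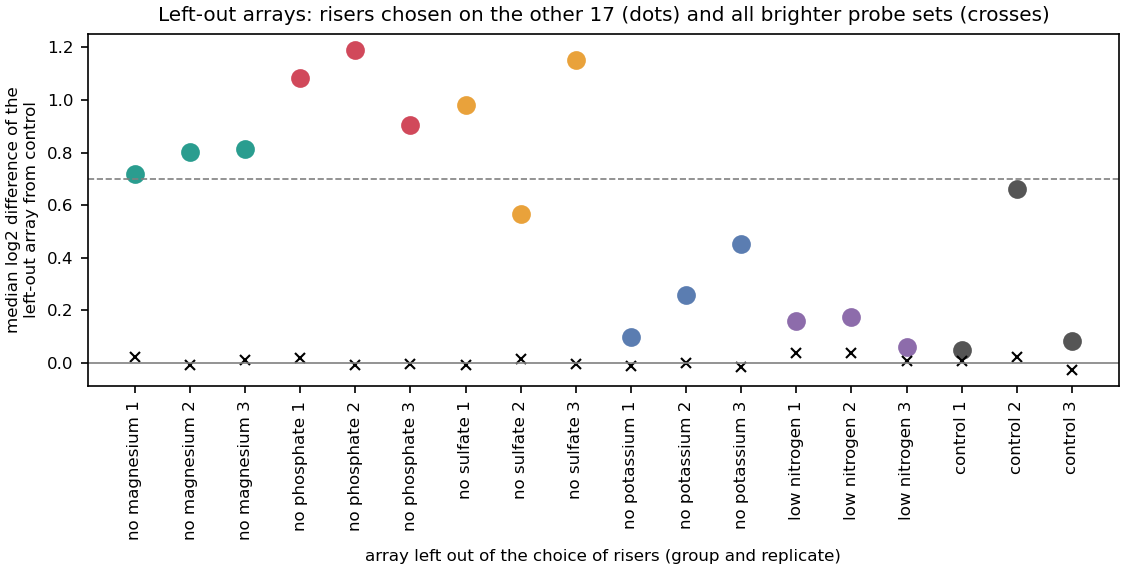
Median log2 difference from control of the risers on an array that was left out of their choice (circles, coloured by group) and of all probe sets of the same brightness (crosses), for each of the 18 arrays, with the 0.7 threshold dashed. The no magnesium, no phosphate and no sulfate arrays lie at 0.57 to 1.19, the no potassium and low nitrogen arrays at 0.06 to 0.45, and control 2 at 0.66.

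Over the 18 choices with an array left out, 2 risers were chosen every time, risers 5 and 14. Riser 3 was chosen in 17 of the 18, missing in the run without control 1, and 6 risers were chosen in 15 or more. Risers 5, 14 and 20 were the members chosen whichever control array was left out. Neither faller reached 15.

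Riser 3 and riser 5 were among the 7 risers whose no magnesium, no phosphate and no sulfate arrays all exceeded every other array. Riser 3 had intensities of 997, 742 and 927 without magnesium, 2549, 1804 and 2200 without phosphate, and 1048, 1088 and 1116 without sulfate, against 607, 389 and 340 in the control. In no potassium roots it stood at 491, 425 and 463, and in low nitrogen roots at 482, 472 and 346. All 9 arrays of the first 3 groups were above all 9 others, control 2 was the middle control array, and no phosphate was above every other array. The group means were 888 ± 132 in no magnesium, 2184 ± 373 in no phosphate, 1084 ± 34.0 in no sulfate and 445 ± 142 in the control (SD, n = 3 each), and the differences between means of log2 values were 1.03, 2.33 and 1.33 relative to control.

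Riser 5 was brighter with the same order. It had intensities of 1941, 1415 and 1521 without magnesium, 4551, 2913 and 3388 without phosphate and 2280, 2274 and 2090 without sulfate, against 894, 906 and 714 in the control. The no potassium arrays gave 931, 874 and 900, and the low nitrogen arrays 1089, 953 and 767. The 9 arrays of the selecting groups lay above all others, the 3 groups did not overlap each other, and control 2 differed little from control 1. The log2 differences from control were 0.95, 2.09 and 1.41, and those of no potassium and low nitrogen were 0.11 and 0.15.

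The array carries 5 probe sets of the sequence cluster of riser 5, and all of them followed the same order of groups. Riser 7 is a cross-hybridising version of riser 5, at intensities of 2931, 1983 and 2115 without magnesium, 5792, 4092 and 4578 without phosphate and 2971, 3328 and 3041 without sulfate, against 1468, 1328 and 966 in the control. The other 3 probe sets of the cluster had log2 differences of 0.69, 1.06 and 0.86 in no magnesium, 1.41, 1.96 and 1.69 in no phosphate, and 0.91, 1.499 and 1.11 in no sulfate. They missed the rule narrowly, 1 at 0.69 in no magnesium and the others through low nitrogen differences of 0.39 and 0.35. Across the 18 arrays each correlated with riser 5 at 0.94 to 0.97, and riser 7 did at 0.99. Since these probe sets share sequence, they are repeat readings of related transcripts and not separate members of a response.

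Riser 14 was chosen for mention after its values were seen, because it was kept in all 18 choices. Its intensities were 668, 545 and 603 without magnesium, 999.7, 817 and 778 without phosphate and 741, 596 and 730 without sulfate, against 364, 350.2 and 329 in the control. It had 399, 447 and 393 in no potassium and 419, 344 and 310.4 in low nitrogen roots. All 9 arrays of the selecting groups exceeded all 9 others, and control 2 was the middle control array.

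The other risers at the head of the ranking were dimmer and less even. Riser 1 had intensities of 207, 216 and 266 without magnesium, 226, 289.8 and 123 without phosphate and 191, 176 and 281 without sulfate, against 28.3, 179 and 142 in the control. Control 1, no potassium 1 (28.2) and low nitrogen 3 (28.7) were far below the arrays beside them, and the groups overlapped. It was kept in 9 of the 18 choices. Riser 2 had 306, 175 and 192 without magnesium, 307, 231 and 158 without phosphate and 208, 241 and 196 without sulfate, against 129, 117 and 67.2 in the control. Here all 9 arrays exceeded all 9 others, and riser 2 was kept in 15 choices. Riser 4 had 143, 197 and 205 without magnesium, 175, 134 and 554 without phosphate and 142, 262 and 223 without sulfate, against 59.4, 126 and 100.5 in the control. These 9 arrays lay above all 3 controls but not above no potassium 1 (159), and no phosphate 3 was far above the rest. Both other probe sets in the cluster of riser 4 were also higher, with log2 differences of 0.76 and 0.65 in no magnesium, 1.05 and 0.93 in no phosphate, and 0.52 and 0.59 in no sulfate.

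**Figure D5:**
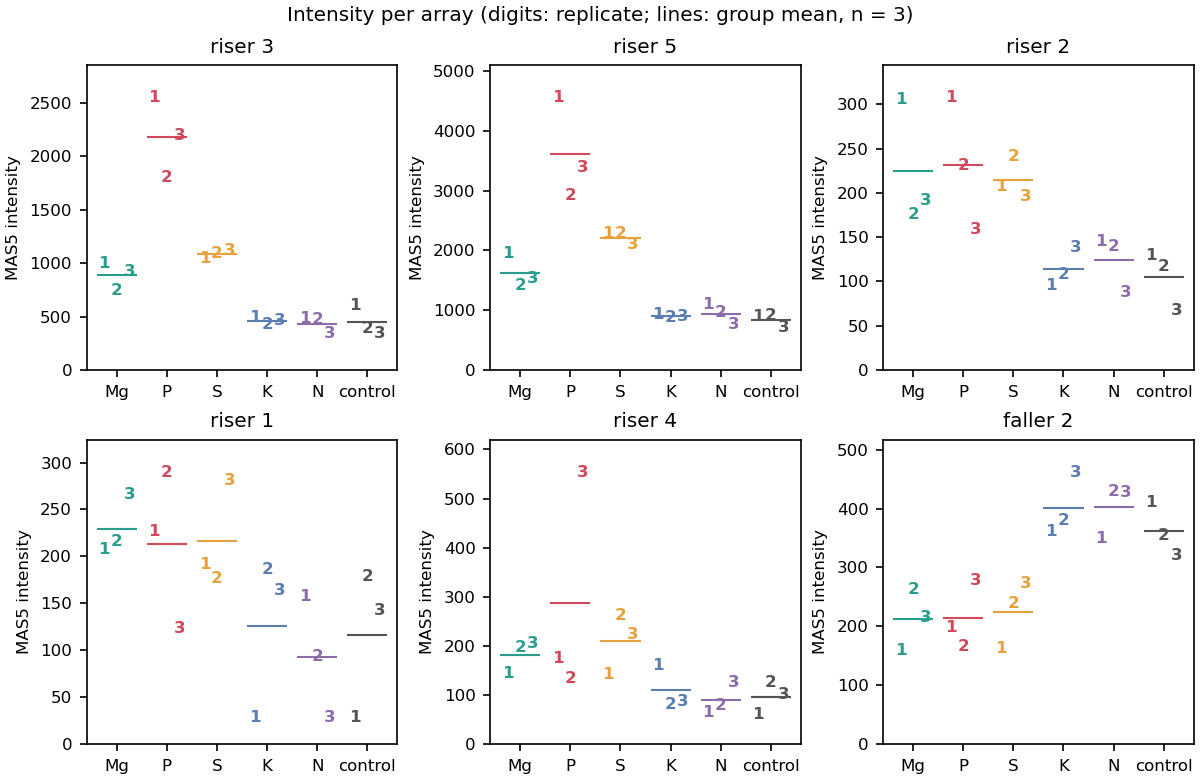
Intensity on each array (vertical axes, linear units from 0; digits give the replicate, lines the mean of 3 arrays) of risers 3, 5, 2, 1 and 4 and faller 2, with the groups lacking magnesium, phosphate, sulfate, potassium and low in nitrogen to the left of the control. Risers 3 and 5 show no overlap between the first 3 groups and the rest, whereas riser 1 has single arrays near 28 in no potassium, low nitrogen and control.

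Most of the other risers shared the direction but not this separation. Riser 6, the brightest of them and likewise chosen after its values were seen, had 2406, 3011 and 2470 without magnesium, 2763, 2296 and 3036 without phosphate and 2326, 2666 and 2913 without sulfate, against 1132, 2470 and 946 in the control. Control 2 lay inside the range of the deficient arrays here, while both other controls were below every array of those groups. Within the control group the risers had a median SD of 0.66 log2, and of 0.39 with control 2 left out, against 0.18 and 0.14 for all probe sets of that brightness. In the no magnesium, no phosphate and no sulfate groups the risers' median SD was 0.23, 0.25 and 0.33. Cluster partners outside the rule existed for risers 17, 19, 21 and 23. The partner of riser 17 had 0.68, 0.73 and 0.38 in no magnesium, no phosphate and no sulfate, and that of riser 23 had 0.50, 0.54 and 0.54. The partner of riser 19 was too dim to be tested, and both partners of riser 21 stood at 0.66 and 0.84 above control in no potassium roots.

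At the threshold itself, the risers just inside had minimum differences of 0.70 (riser 24) and 0.71 (riser 23). The probe sets just outside stood at 0.69 and 0.69, and 1 of them was the bright partner of riser 5. In the lower direction both members lay at -0.71, and the nearest probe sets outside had minimum differences of -0.67 and -0.64.

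The fallers were less distinct than the leading risers. Faller 1 had intensities of 243, 431 and 323 without magnesium, 99.5, 351 and 158 without phosphate and 219, 348 and 387 without sulfate, against 298, 662 and 757 in the control. Its groups overlapped, because control 1 was no higher than several deficient arrays, and it gave 419, 749.8 and 501 in no potassium and 479.9, 591 and 401 in low nitrogen roots. Faller 2 had 159, 263 and 215 without magnesium, 198, 165 and 278 without phosphate and 162, 239 and 273 without sulfate, against 409.98, 355 and 320 in the control. The no potassium arrays gave 361, 380 and 462, and the low nitrogen arrays 349, 429 and 428. All 9 arrays of the selecting groups were below all 9 others, which held for 0.343% of all probe sets of that brightness.

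The differences between the deficient groups themselves involve no control array and were not part of the rule, which sets a floor for each group and not their order. They were tested with limma over 34255 probe sets with Benjamini-Hochberg adjustment, and calls were made where the adjusted p was under 0.05. Between no phosphate and no magnesium, 3 of the 26 members were called, all higher in no phosphate, where 610 of all tested probe sets were called (1.78%) and 0.555% were called higher. Between no phosphate and no sulfate, 1 member was called higher, with 287 of all tested called (0.838%) and 0.187% higher. Between no magnesium and no sulfate, limma called 0 members and 0 of all tested (0%), with 2 members and 1246 probe sets at an unadjusted p under 0.05. Over the 24 risers the median difference was 0.26 for no phosphate minus no magnesium (21 above 0), 0.14 for no phosphate minus no sulfate (19 above 0) and -0.09 for no magnesium minus no sulfate (6 above 0). The medians over all tested probe sets were -0.01, -0.0011 and 0.01. The floors of the rule bear on this order, so the medians are a description.

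Riser 3 was higher in no phosphate than in no magnesium roots by 1.29 ± 0.19 log2 (SE; 95% confidence interval 0.89 to 1.70; limma adjusted p = 0.00295). It was also higher than in no sulfate roots, by 1.00 ± 0.19 (0.60 to 1.40; limma adjusted p = 0.0239). The 3 no phosphate arrays exceeded all 6 others in both comparisons. The call against no magnesium held in all 15 alternative analyses, with adjusted p from 0.00113 to 0.0296. That against no sulfate held in 9 of 15 (0.00871 to 0.0968). It was lost without no phosphate array 1 or 3, without any of the 3 no sulfate arrays, and without the intensity trend. No magnesium and no sulfate differed by -0.30 for this probe set (-0.70 to 0.10), which did not pass the test.

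Riser 5 was higher in no phosphate than in no magnesium roots by 1.14 ± 0.16 log2 (0.80 to 1.48; limma adjusted p = 0.00232), and riser 7 of the same cluster by 1.05 ± 0.18 (0.68 to 1.42; limma adjusted p = 0.00798). The other 3 probe sets of the cluster had differences of 0.72, 0.90 and 0.83, with limma adjusted p of 0.0674, 0.0613 and 0.0730. Riser 5 kept its call in 14 of 15 alternatives and lost it when only the 6 arrays compared were fitted (limma adjusted p = 0.0507). Riser 7 kept its call in 13, and lost it in the same setting (0.0565) and without no magnesium array 2 (0.0539). Against no sulfate, riser 5 differed by 0.68 (0.35 to 1.02; limma adjusted p = 0.0573) and riser 7 by 0.62 (0.25 to 0.99; limma adjusted p = 0.110), so neither passed. Riser 5 was called there in 5 of 15 alternatives (limma adjusted p from 0.0149 to 0.188), and riser 7 in 1, with the replicate block (0.0390). Riser 14 differed by 0.51 ± 0.13 between no phosphate and no magnesium (0.23 to 0.79; limma adjusted p = 0.0619), also short of the threshold, and was called in 3 of 15 alternatives, quantile normalization (0.0411), the 75th percentile (0.0461) and the replicate block (0.0386). For the remaining risers the differences between these groups ran no higher than 0.59, and their intervals included 0 for no phosphate minus no magnesium. Faller 1 was lower in no phosphate than in no magnesium roots by 0.87 on the log2 scale, which did not pass.

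Since the members have no gene names, the annotated genes closest to them in pattern were looked up, by Pearson correlation over the 18 arrays between a probe set and the members' mean standardised profile. There were 841 candidate probe sets for 586 genes, and the members' own correlations with their profile were 0.64 to 0.94. Like the risers were UBC1, a ubiquitin-conjugating enzyme that passes ubiquitin on to target proteins (r = 0.86), and rbcl, the plastid-encoded large subunit of Rubisco (r = 0.85). The other 8 genes had running LOC numbers only, with r of 0.81 to 0.86. UBC1 stood 0.28, 0.42 and 0.48 above control in no magnesium, no phosphate and no sulfate on this probe set, while its brightest probe set stood at -0.07, -0.24 and -0.24. For rbcl the values were 0.21, 0.59 and 0.51, and its brightest probe set had -0.07, -0.17 and -0.07. A dim rbcl probe set (mean log2 6.57) had 0.76, 1.15 and 0.95. Probe sets of these genes thus disagreed, and none of the 10 named for likeness reached 0.7 in no magnesium. On the probe sets named for likeness, UBC1 stood at -0.44 and rbcl at -0.37 in low nitrogen, outside the band of 0.3. Both also had control 2 far above controls 1 and 3. For UBC1 it was 682 against 283 and 378, and for rbcl 388 against 183 and 202.

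Like the fallers was Tubb5, a beta-tubulin of the microtubules that guide cell wall deposition and pull chromosomes apart (r = 0.87). Its intensities were 2437, 3145 and 2697 without magnesium, 2134, 2661 and 2114 without phosphate and 2568, 2411 and 2453 without sulfate, against 3257, 3383 and 3606 in the control. The 9 arrays of the selecting groups lay below all 9 others, and all 4 probe sets of the gene had the same signs, from -0.31 to -0.48 in no magnesium, -0.58 to -0.84 in no phosphate and -0.46 to -0.69 in no sulfate. FKBP70, a peptidyl-prolyl isomerase that helps proteins fold (r = 0.85), had 6648, 6755 and 7062 without magnesium, 6026, 6020 and 6006 without phosphate and 6662, 6965 and 6303 without sulfate, against 8489, 7961 and 8477 in the control. Here too the 9 arrays lay below all 9 others, including control 2. The other 8 genes like the fallers had LOC numbers and r of 0.82 to 0.86. On these probe sets both named genes had smaller differences than the rule asks for, at -0.28 to -0.58.

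Of 50 listed genes with informative names, covering light-reaction proteins, histones and tubulins, stress, cell wall, sugar, sulfur and translation genes, 43 were tested and each was read on its brightest probe set. In all of no magnesium, no phosphate and no sulfate, 11 were above control and 23 below. Past 0.7 in all of them, 1 was higher and 0 lower. The 1 was Em, an embryo protein of drying tissue, at a mean log2 of only 5.16 and also 1.37 higher in low nitrogen. The similarly named and similarly dim EM (mean log2 5.30) stood at -0.09, 0.26 and -0.75 in these groups and at -0.83 in low nitrogen. The lists were made with earlier results of these data known, so the calls below are a description. Limma against control called 8 of the 43 in no phosphate, 2 higher and 6 lower, where 9.51% of all tested probe sets were called (4.19% higher and 5.32% lower). The higher ones were LEA1, a late embryogenesis protein of drying tissue, and PCS1, which makes metal-binding phytochelatins, and the lower ones H2A-3, H2A-9, wcH2B-6, Tubb5, FKBP70 and PEAMT1. Limma called 0 listed genes when only the 6 arrays compared were fitted, 4 without control 3, 5 without no phosphate 3, 13 without control 2, and 16 (1 higher, 15 lower) with median centring. In no magnesium limma called 0 of the 43 (4 at an unadjusted p under 0.05; 0.0613% of all tested were called, 0.0525% higher and 0.00876% lower) and in no sulfate 0 (15 at an unadjusted p under 0.05; 0.0175% called, all higher), against 6 lower in no sulfate without control 2. Of 11 histone and tubulin genes, which are most used in dividing cells, 1 was above control in each of these groups, and their medians were -0.11, -0.30 and -0.19.

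Markers of green tissue, which a root sample can hold when stem bases are dug up with it, had values above 0 on all arrays. The lowest intensity in the data was 0.0424, so a value above 0 does not show that a transcript was present. The 3 nuclear genes PsbO, PsbP and petC, proteins of the light reactions, had a summed intensity of 1015 to 1425 in no magnesium, 517 to 1384 in no phosphate and 1111 to 2292 in no sulfate, against 549.8 to 989 in the control. In no potassium they had 698 to 1371 and in low nitrogen 439 to 488. All 3 were above control in each of no magnesium, no phosphate and no sulfate, and also in no potassium, and 0 of 3 were so in low nitrogen. The plastid gene rbcl stood at -0.07, -0.17 and -0.07 and dominated the sum of the list. Of genes listed for roots only PER1, which was also listed under detoxification, could be read, at intensities of 110 to 197 on all arrays. Whether it marks root tissue was not tested. The part of green tissue in the members' differences was not tested.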

How the data were processed

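RNA from 18 wheat root samples was measured on 18 Affymetrix wheat arrays, from 500 ng of RNA each, per the labels' protocols. The authors deposited 1 linear intensity per probe set and array. Affymetrix Expression Console and MAS5 made them, per the submitters' processing notes, which give no version or scaling target. The trimmed mean was 500.1 on every array. After removal of 111 control probe sets, intensities were turned to log2 with no constant added. The members and the gene lists were chosen with earlier results of these data known, by the rule given above.

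Group means over all 18 arrays were fitted with limma 3.58.1 in R 4.3.3 (eBayes with an intensity trend, 12 residual and 4.39 prior degrees of freedom), for the 34255 probe sets at or above their array's median on at least 3 arrays. All 26 members passed this filter. Tests were two-sided and adjusted by the Benjamini-Hochberg method over all tested probe sets. The script was tested on simulated data. Names of genes are those of the platform annotation, which gives a gene for 1273 wheat probe sets. Named members were the first 5 risers and both fallers by rank, those at the threshold, those called, and the annotated genes closest in pattern. The number of arrays limits the precision, and detection calls were not used. Plots were made in Python 3.11.15 with matplotlib 3.10.9. Alternatives were other scalings, filters and thresholds, leaving out each array, and the replicate number as a block.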

Additional observations from a re-analysis of the deposited data

Results flagged for a closer look

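A difference between deficient groups passed its own test for 3 members in no phosphate against no magnesium and for 1 in no phosphate against no sulfate (limma, Benjamini-Hochberg adjustment over 34255 probe sets). In no phosphate against no magnesium roots these were riser 5, higher by 1.14 log2, riser 3, higher by 1.29, and riser 7, of the same cluster as riser 5, higher by 1.05. In no phosphate against no sulfate roots it was riser 3, higher by 1.00. No member was called between no magnesium and no sulfate, where 2 had an unadjusted p under 0.05.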

How the results depend on the processing

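The number of members depended strongly on the settings. Against 24 risers and 2 fallers as deposited, quantile normalization gave 12 and 5, centring on the 75th percentile 14 and 4, and centring on the median 3 and 34, the last because it moves the median of all bright probe sets by -0.26 (no magnesium), -0.24 (no phosphate) and -0.25 (no sulfate). A threshold of 1 gave 3 and 0, one of 0.5 gave 115 and 18, a band of 0.2 gave 12 risers, a band of 0.5 gave 43 and 6, a mean log2 of 8 gave 14 risers and one of 6 gave 43. Leaving out each array gave 8 (without control 1) to 39 (without control 2) risers and 0 (without control 1 or no sulfate 1) to 5 (without control 3) fallers, and 1 without no phosphate 2 and 4 without no sulfate 2. Settings chosen after seeing the data, without control 2, gave 24 risers and 7 fallers with quantile normalization, 26 and 10 with the 75th percentile, and 3 and 111 with median centring, with 6, 6 and 2 of these risers among the 24. Of the 24 risers, 11, 14 and 3 were kept under the 3 scalings. Group medians in place of means gave 27 risers and 3 fallers, close in number, but kept 7 of the 24 risers and 0 of the 2 fallers.

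Of the 3 members called between no phosphate and no magnesium, 1 was called when only the 6 arrays compared were fitted, and 2 to 3 with an array left out. Between no phosphate and no sulfate, in place of 1, 2 were called with quantile normalization, with the 75th percentile and with a mean log2 of 7 or more, 0 without an intensity trend, 3 with the replicate block, and 0 to 2 with an array left out. Over all probe sets, the 610 called between no phosphate and no magnesium became 322 with median centring, 398 with no filter, 291 without a trend, 158 with only the 6 arrays, and 109 (without no magnesium 2) to 1409 (without no phosphate 2) with an array left out. The 287 between no phosphate and no sulfate became 154, 162, 101 and 66 in the same settings, and 49 (without no sulfate 2) to 993 (without no phosphate 2). Between no magnesium and no sulfate 0 to 4 were called. Deviations of same-numbered no magnesium, no phosphate and no sulfate arrays correlated at -0.107 to 0.0145. Control, no potassium and low nitrogen arrays were not compared in this way, so whether replicate numbers mark a shared batch was not settled. The block changed the other counts of members called by 1 at most. Over all probe sets it turned the 610 into 701 and the 287 into 375. Listed genes called in no phosphate numbered 4 to 13 with an array left out, 0 with only the 6 arrays and 16 with median centring, and in no sulfate 0 to 6 with an array left out. The causes were not tested. Signal close to background limits dim members such as risers 1, 2 and 4.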
